A study of Mus musculus with 10 samples.

Results

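The 6 *Clec2* genes and 4 *Klrb1* genes, which encode the Clr ligands and the NKR-P1 receptors, were followed in mouse uteri with and without endometrial epithelial *Arid1a*. Their identifiers were found by symbol (*Clec2d*, *Clec2e*, *Clec2f*, *Clec2g*, *Clec2h*, *Clec2i*, *Klrb1a*, *Klrb1b*, *Klrb1c* and *Klrb1f*), and they make up 10 of the 45706 genes counted. The set was chosen by its values in the comparison of genotypes made here, so the differences between genotypes of these 10 genes are given as a description, without p-values. *Arid1a* encodes a subunit of the SWI/SNF chromatin remodelling complex. Tissue came from adult females mated with wild-type males, on gestation day (GD) 3.5. The 5 control mice were *Arid1a* f/f, carrying floxed *Arid1a* alleles without Cre, and the 5 other mice were *Ltf* iCre/+ *Arid1a* f/f, carrying the same floxed alleles with Cre recombinase expressed from the lactoferrin locus (iCre mice and iCre uteri from here on). Lactoferrin is made by the endometrial epithelium of adult females and also by neutrophils. The deletion was aimed at the epithelium, and other cell types share the tissue. The authors could not exclude that *Arid1a* deletion in myeloid immune cells played a part. The mice were of a mixed C57BL/6 and 129 background.

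Clr proteins are C-type lectin-like molecules that sit on the surface of many cells, and NKR-P1 proteins are their receptors on natural killer (NK) cells and related lymphocytes. Ligand and receptor genes lie interleaved in the NK gene complex, and so tend to be inherited together. The best known pair is Clr-b, encoded by *Clec2d*, with the inhibitory receptor encoded by *Klrb1b*, which restrains NK cells from killing cells that keep Clr-b. *Klrb1a* and *Klrb1c* encode activating receptors, and *Klrb1c* carries the NK1.1 antigen by which NK cells of C57BL/6 mice are recognised. *Klrb1f* encodes a receptor that binds Clr-g, the product of *Clec2i*. In the pregnant uterus NK cells become abundant after implantation, in the decidua that forms later than the day studied.

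The sequence just before each start site is shown for the 4 receptors, because the receptors differed by unequal amounts between genotypes, and for *Clec2d* and *Clec2g*, the most abundant ligand and one whose values differed widely between uteri. RefSeq promoter sequences (GRCm38.p6, the 250 bases before the start) were found for 9 of the 10 genes, all but *Clec2f*. The windows lie at chr6:128826316-128826565 (minus strand) for *Klrb1b*, chr6:129045651-129045900 (plus strand) for *Klrb1f*, chr6:128622935-128623184 (minus strand) for *Klrb1a* and chr6:128788642-128788891 (minus strand) for *Klrb1c*. Capitals mark the letters GGAAGT (an ETS motif, or ACTTCC when read on the other strand) and TGTGGT (a RUNX motif).
Klrb1b: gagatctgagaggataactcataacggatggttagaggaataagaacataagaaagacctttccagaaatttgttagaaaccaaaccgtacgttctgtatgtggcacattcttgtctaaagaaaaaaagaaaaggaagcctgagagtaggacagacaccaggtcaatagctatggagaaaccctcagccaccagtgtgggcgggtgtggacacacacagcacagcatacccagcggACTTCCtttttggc
Klrb1f: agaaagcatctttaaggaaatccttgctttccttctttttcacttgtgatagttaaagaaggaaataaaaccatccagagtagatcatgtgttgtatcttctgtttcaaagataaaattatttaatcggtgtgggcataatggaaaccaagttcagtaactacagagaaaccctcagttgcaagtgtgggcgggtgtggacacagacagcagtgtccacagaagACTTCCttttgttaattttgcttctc
Klrb1a: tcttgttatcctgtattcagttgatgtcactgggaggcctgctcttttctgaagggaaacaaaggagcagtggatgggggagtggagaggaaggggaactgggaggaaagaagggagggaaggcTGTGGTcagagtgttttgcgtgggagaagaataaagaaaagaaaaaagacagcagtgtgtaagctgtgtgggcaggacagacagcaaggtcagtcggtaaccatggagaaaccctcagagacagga
Klrb1c: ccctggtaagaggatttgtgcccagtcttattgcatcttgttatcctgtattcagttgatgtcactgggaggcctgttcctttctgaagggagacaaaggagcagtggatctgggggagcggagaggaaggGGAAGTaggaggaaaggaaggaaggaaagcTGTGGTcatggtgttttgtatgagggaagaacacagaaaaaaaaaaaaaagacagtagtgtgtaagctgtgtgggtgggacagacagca

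The windows of *Klrb1a* and *Klrb1c* were alike at 64.8% of alignment positions, gaps included, and shared a run of 41 bases. Those of *Klrb1b* and *Klrb1f* were alike at 52.6% and shared the 22 bases agtgtgggcgggtgtggacaca, while the median over the receptor pairs was 43.6%. The ETS letters stood in 3 receptor windows, 14 bases before the start in *Klrb1b*, 26 in *Klrb1f* and 119 in *Klrb1c*, and 19.7% of the 32851 promoter windows of the genome hold them on either strand. The RUNX letters stood in *Klrb1a* and *Klrb1c* and in 14.0% of all windows. A T-box motif (GGTGTGA, in 3.33% of all windows) and a STAT motif (TTCNNNGAA, in 7.02%) were in none of the 9 windows. Such matches describe letters, not bound sites. GENCODE places further upstream starts for *Klrb1a* and *Klrb1c*, and RefSeq lists 2 starts for *Klrb1b*, of which the first listed was used.

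For the ligands the windows lie at chr6:129180365-129180614 (plus strand) for *Clec2d* and chr6:128934131-128934380 (plus strand) for *Clec2g*. Capitals mark TGANTCA, an AP-1 motif found in 6.75% of all windows.
Clec2d: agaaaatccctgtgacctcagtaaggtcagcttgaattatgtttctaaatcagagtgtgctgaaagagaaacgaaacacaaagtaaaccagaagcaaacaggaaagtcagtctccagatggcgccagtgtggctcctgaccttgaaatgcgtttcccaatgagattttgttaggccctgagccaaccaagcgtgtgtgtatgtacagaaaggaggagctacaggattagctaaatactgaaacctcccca
Clec2g: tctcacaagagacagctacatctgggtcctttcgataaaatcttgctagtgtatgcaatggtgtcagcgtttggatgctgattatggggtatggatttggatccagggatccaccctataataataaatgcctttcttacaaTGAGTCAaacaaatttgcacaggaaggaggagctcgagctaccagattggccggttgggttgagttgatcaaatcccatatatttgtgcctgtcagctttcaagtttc

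The AP-1 letters stood in the windows of *Clec2e*, *Clec2g* and *Clec2h*, and none of the 6 motifs searched stood in that of *Clec2d*. A TATA motif (TATAAA, in 12.4% of all windows) was found in *Clec2e*, 46 bases before the start. The median identity between ligand windows was 45.0%.

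The 10 genes lie within 577 kb of chromosome 6 (GRCm38, 128609227 to 129186534), in the order *Klrb1a*, *Clec2h*, *Klrb1c*, *Klrb1b*, *Clec2i*, *Clec2g*, *Clec2f*, *Klrb1f*, *Clec2e* and *Clec2d*. Libraries held 59296537 to 72702411 counts, and 25146 genes averaging at least 1 count per library were tested. Levels are CPM, the counts of a gene divided by the TMM-adjusted library total and put on a shared scale, and 3 counts, the level taken as the detection floor, amount to 0.0418 to 0.0507 CPM. *Arid1a* was 213 ± 22.9 CPM (SD, n = 5) in controls against 185 ± 15.9 CPM in iCre uteri (SD, n = 5), a log2 fold change of -0.20 (SE 0.09) that did not pass edgeR's quasi-likelihood test (adjusted p = 0.201). Of the 5 iCre values, 4 lay below all controls. How much *Arid1a* the other cells of the whole uterus kept was not measured. The labels number the samples without naming animals, so the errors and p-values measure the spread between these samples. In bulk tissue, fewer cells of a type and less RNA per cell cannot be told apart.

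Compared per kilobase of exon, *Clec2d* was by far the most abundant of the 10 genes, at 43.8 CPM per kb in controls. *Klrb1c* was next at 2.10, followed by *Klrb1f* at 1.41, *Clec2f* at 1.05, *Klrb1b* at 0.958, *Clec2i* at 0.808 and *Klrb1a* at 0.513 CPM per kb. *Clec2g* (0.0737) and *Clec2e* (0.0587) were lower still, and *Clec2h* had no count in controls. Of these neighbours in the order, the values of single control uteri were apart between *Clec2d* and *Klrb1c*, between *Klrb1a* and *Clec2g* and between *Clec2e* and *Clec2h*, and overlapped in all other steps. In iCre uteri *Clec2d* again led at 42.3 CPM per kb, and by mean *Clec2f* (5.43) and *Klrb1b* (2.19) stood above *Klrb1c* (2.09) and *Klrb1f* (1.33). Single uteri overlapped between neighbours from *Clec2f* to *Klrb1f*. Not divided by exon length, which is 657 bases for *Clec2f*, the iCre means were 6.18 CPM for *Klrb1c*, 4.89 for *Klrb1b* and 3.57 for *Clec2f*. *Clec2d* made up 95.6% ± 0.957 (SD, n = 5) of the ligand level per kb in controls and 86.0% ± 4.10 (SD, n = 5) in the other genotype.

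**Figure D1:**
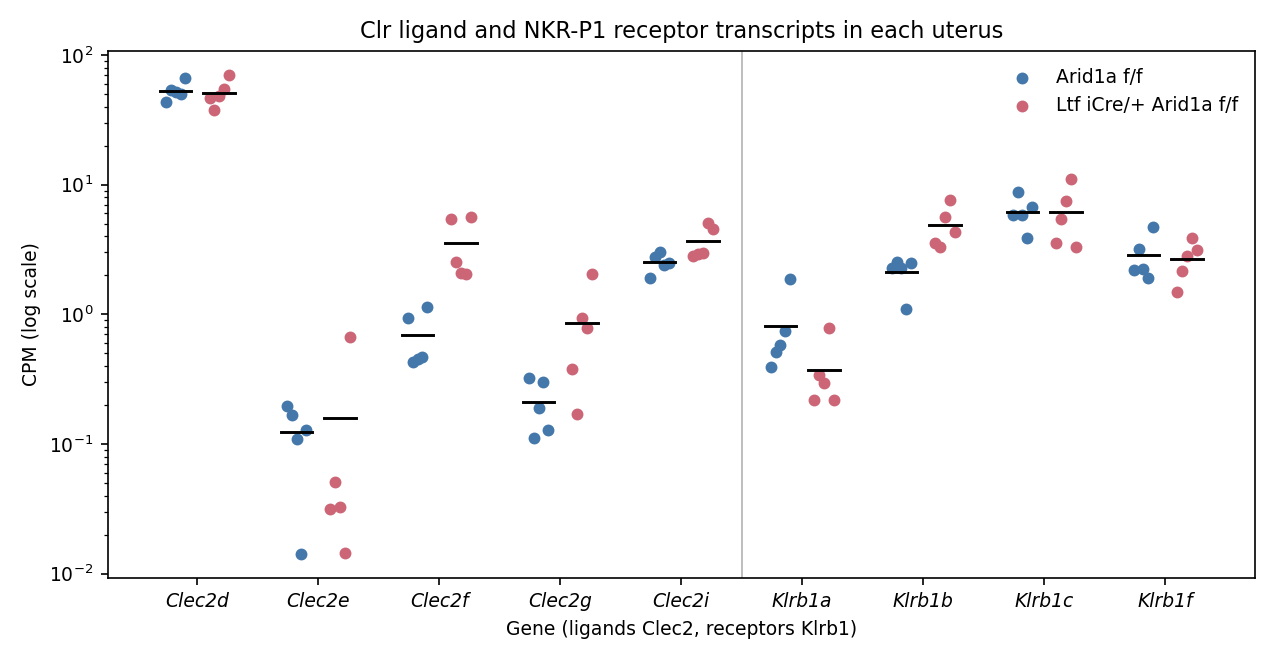
CPM of the Clr ligand and NKR-P1 receptor genes, side by side on a shared log-scale vertical axis. Points are single uteri of the 5 Arid1a f/f and 5 Ltf iCre/+ Arid1a f/f mice, and lines are genotype means. Clec2h is not drawn. For Clec2f (0.432 to 1.15 against 2.05 to 5.67 CPM) and Klrb1b (1.09 to 2.52 against 3.28 to 7.63 CPM) all values of the second genotype sit above all controls.

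Of the 10 genes 9 were tested, and 2 of them passed the threshold of 0.05 on the adjusted p (*Clec2f* and *Klrb1b*), both higher in iCre uteri. In the same fit 9.7% of all tested genes passed, 5.19% higher and 4.51% lower. The same 2 genes were those whose genotypes did not overlap, against 10.7% of all tested genes. Nothing can be read from these counts, since the set was chosen with this comparison known. The median log2 fold change was 0.38 over the 9 genes, 0.55 over the 5 tested ligands and -0.044 over the 4 receptors, beside 0.026 over all tested genes.

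*Clec2d*, the ligand of the inhibitory receptor, differed little. Control uteri held 43.1, 54.1, 51.5, 50.0 and 66.9 CPM and iCre uteri held 46.3, 37.5, 48.0, 54.4 and 70.5 CPM. The ranges largely covered each other, and the highest value of each genotype was that of replicate 5. The log2 fold change was -0.049 (SE 0.16), and it changed sign to 0.043 without control replicate 5 or without iCre replicate 2. By a measure of likeness over the 10 uteri (the root-mean-square difference of centred log2 CPM, over 14590 genes), the patterns nearest to *Clec2d* were those of *Nuak2* (0.104), *1810014B01Rik* (0.119) and *H3f3aos* (0.123), beside a median of 0.361.

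*Clec2f* (ENSMUSG00000089728, chromosome 6, 129014112 to 129020527, plus strand), which encodes Clr-c, was the 1 ligand that passed the threshold. Control uteri held 0.937, 0.432, 0.454, 0.469 and 1.15 CPM, from 29 to 80 counts. iCre uteri held 5.47, 2.55, 2.09, 2.05 and 5.67 CPM, from 128 to 392 counts. Every value of the second genotype lay above every control, and within each genotype replicates 1 and 5 were highest. Means were 0.688 ± 0.333 (SD, n = 5) and 3.57 ± 1.84 CPM (SD, n = 5), a ratio of 5.18, and the log2 fold change was 2.37 (SE 0.42). Without iCre replicates 1 and 5 together, left out after the values were seen, it was 1.69 and still past the threshold. GENCODE labels *Clec2f* a transcribed unprocessed pseudogene with an exon model of 657 bases, whereas RefSeq lists it as protein coding.

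*Clec2g*, which encodes Clr-d, was low in every uterus. Controls held 0.322, 0.112, 0.188, 0.298 and 0.129 CPM, and iCre uteri held 0.376, 0.169, 0.932, 0.784 and 2.05 CPM. Of the latter 4 lay above all controls, and replicate 2 lay within them. The log2 fold change of 2.03 (SE 0.60) did not pass the threshold. It passed without iCre replicate 1 or replicate 2 (up to 2.29), and it was 1.42, not past it, without replicate 5, which held the highest value. On the opposite strand *Gm15987*, an antisense gene, overlaps *Clec2g*, and it stood at 1.17 CPM in controls and 1.60 CPM in the other genotype. How the counting used strand is not given in the sources used here, so reads of the overlapping parts cannot be told apart.

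*Clec2i*, which encodes Clr-g, stood at 1.90, 2.75, 3.02, 2.39 and 2.50 CPM in controls and at 2.82, 2.91, 2.98, 5.08 and 4.59 CPM in iCre uteri. Replicates 4 and 5 of the latter lay above all controls and the other 3 values lay within their range. The log2 fold change of 0.55 (SE 0.22) did not pass the threshold. A further 3539 bases of *Clec2i* lie under *BC035044* on the opposite strand, whose own log2 fold change was 0.40.

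*Clec2e*, which encodes Clr-a, was near the floor. Controls held 0.196, 0.167, 0.110, 0.0142 and 0.129 CPM. iCre uteri held 0.0314, 0.0507, 0.0327 and 0.0145 CPM in replicates 1 to 4, all from at most 3 counts, and 0.666 CPM in replicate 5. The log2 fold change of 0.38 (SE 0.96) therefore turned on 1 uterus and was -1.89 without it. *Clec2h*, which encodes Clr-f, had 1 count in all 10 libraries together and was not tested.

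Among the receptors, *Klrb1b* alone passed the threshold. This gene (ENSMUSG00000079298, chromosome 6, 128813706 to 128826331, minus strand), for the inhibitory receptor of Clr-b, stood at 2.27, 2.52, 2.29, 1.09 and 2.50 CPM in controls and at 3.53, 3.28, 5.67, 7.63 and 4.34 CPM in iCre uteri. All values of the second genotype lay above all controls. Means were 2.13 ± 0.593 (SD, n = 5) and 4.89 ± 1.79 CPM (SD, n = 5), a ratio of 2.29, and the log2 fold change was 1.20 (SE 0.29). The call was lost without any 1 of the 5 controls and without iCre replicate 3 or 4, that is in 7 of 10 omissions of a single uterus, while the log2 fold change stayed between 0.98 and 1.31.

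*Klrb1c*, which encodes the NK1.1 receptor, held 5.86, 8.78, 5.84, 3.86 and 6.69 CPM in controls and 3.54, 5.48, 7.54, 11.0 and 3.31 CPM in iCre uteri. Means of 6.21 ± 1.78 (SD, n = 5) and 6.18 ± 3.21 CPM (SD, n = 5) were nearly the same, although the second genotype spanned the wider range. The log2 fold change was -0.0060 (SE 0.34), and its sign turned in 5 of 10 such omissions, with 0.15 without control replicate 2 or iCre replicate 5. The patterns nearest to *Klrb1c* over the 10 uteri were those of *Il2rb* (0.279), *Nkg7* (0.296) and *Gm14443* (0.299), beside a median of 0.593. *Il2rb* encodes a receptor chain for interleukins that NK cells need, and *Nkg7* a protein of cytotoxic granules.

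*Klrb1f* stood at 2.18, 3.19, 2.23, 1.92 and 4.71 CPM in controls and at 1.49, 2.15, 2.81, 3.86 and 3.13 CPM in iCre uteri. The genotypes overlapped, with a log2 fold change of -0.082 (SE 0.31) that was 0.17 without control replicate 5.

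*Klrb1a* was the scarcest receptor. Controls held 0.392, 0.516, 0.580, 0.739 and 1.87 CPM, and iCre uteri held 0.220, 0.338, 0.294, 0.784 and 0.217 CPM. Of the latter 4 lay below all controls, and replicate 4 lay above 4 of the controls. The log2 fold change of -1.14 (SE 0.50) did not pass the threshold, and it was -0.58 without control replicate 5.

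The proportions of the receptors to each other were also read, a comparison chosen after the values were seen. *Klrb1b* made up 19.4% ± 3.77 (SD, n = 5; 15.3 to 23.6%) of the receptor level per kb in controls and 38.1% ± 4.41 (SD, n = 5; 32.0 to 43.3%) in iCre uteri. The ratio of *Klrb1b* to *Klrb1c* CPM was 0.387, 0.287, 0.391, 0.283 and 0.373 in controls and 0.996, 0.599, 0.753, 0.691 and 1.31 in the other genotype. That of *Klrb1b* to *Klrb1f* was 0.792 ± 0.242 (SD, n = 5) and 1.86 ± 0.396 (SD, n = 5), again without overlap. All 3 receptor ratios with *Klrb1b* were apart between genotypes and the other 3 overlapped, as did the summed receptor level of 4.97 ± 1.46 (SD, n = 5) and 5.84 ± 2.34 CPM per kb (SD, n = 5). *Klrb1b* was the receptor whose own values did not overlap, so its ratios partly restate that difference. Of the 10 ratios between the 5 ligands with counts in every uterus, *Clec2d* to *Clec2f* and *Clec2d* to *Clec2i* were apart. The share of such ratios over other genes was not computed, so nothing can be read from these counts. The summed ligand level, 45.8 ± 7.43 (SD, n = 5) and 49.3 ± 12.4 CPM per kb (SD, n = 5), overlapped.

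**Figure D2:**
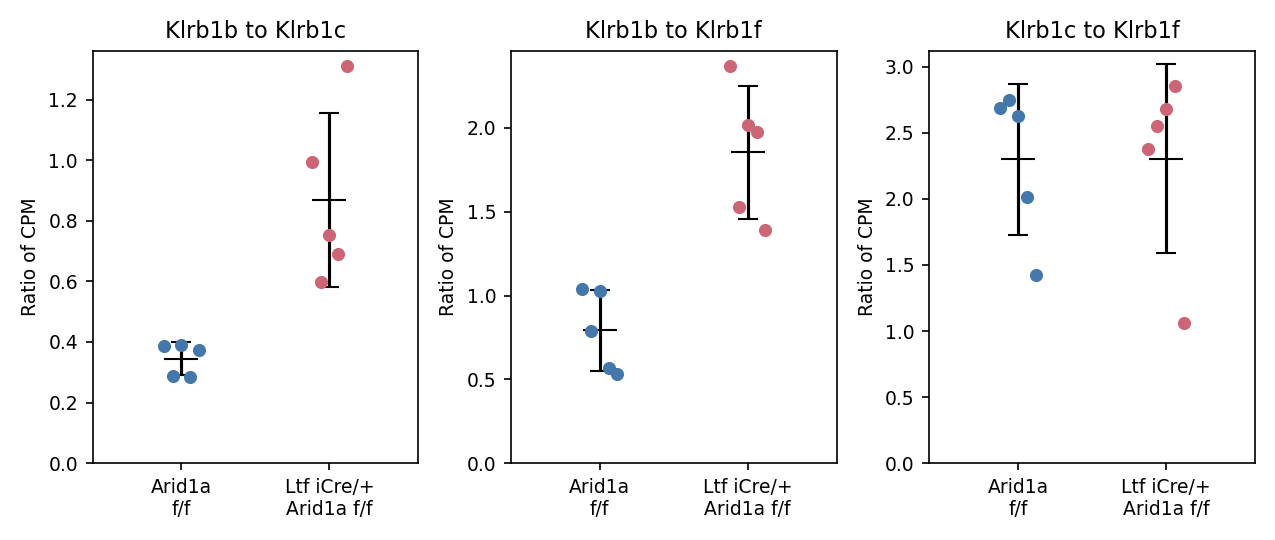
Ratios of the CPM of NKR-P1 receptor genes (vertical axes) in each uterus (points) of the 5 Arid1a f/f and 5 Ltf iCre/+ Arid1a f/f mice, with the mean and SD of each genotype. Klrb1b to Klrb1c runs from 0.283 to 0.391 in controls and from 0.599 to 1.31 in the second genotype, while Klrb1c to Klrb1f overlaps.

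Close relatives could share reads. Of all 50-base stretches of their transcripts, 27.2% of *Klrb1b*, 17.0% of *Klrb1c*, 9.92% of *Klrb1a* and 0% of *Klrb1f* also occur in another gene. Most of this lies in *Gm44511*, a read-through model (chromosome 6, 128780285 to 128826315, minus strand) that spans *Klrb1c* and *Klrb1b*, and without it the shares are 5.77% for *Klrb1b* and 5.99% for *Klrb1c*. *Gm44511* is not among the genes counted, so it held no reads of these receptors in the count data. How reads of the other shared stretches were counted was not tested. Among the ligands the share was 4.13% for *Clec2i*, 3.90% for *Clec2g*, 2.15% for *Clec2h*, 1.98% for *Clec2d* and 0% for *Clec2e* and *Clec2f*. Coding sequences of *Klrb1a* and *Klrb1b* were alike at 81.0% of alignment positions, gaps included, and those of *Klrb1b* and *Klrb1c* at 70.7%. Because the mice were of a mixed background and the strain of origin of this chromosome region is not given for any uterus, the part of allele differences in the counts was not tested.

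**Figure D3:**
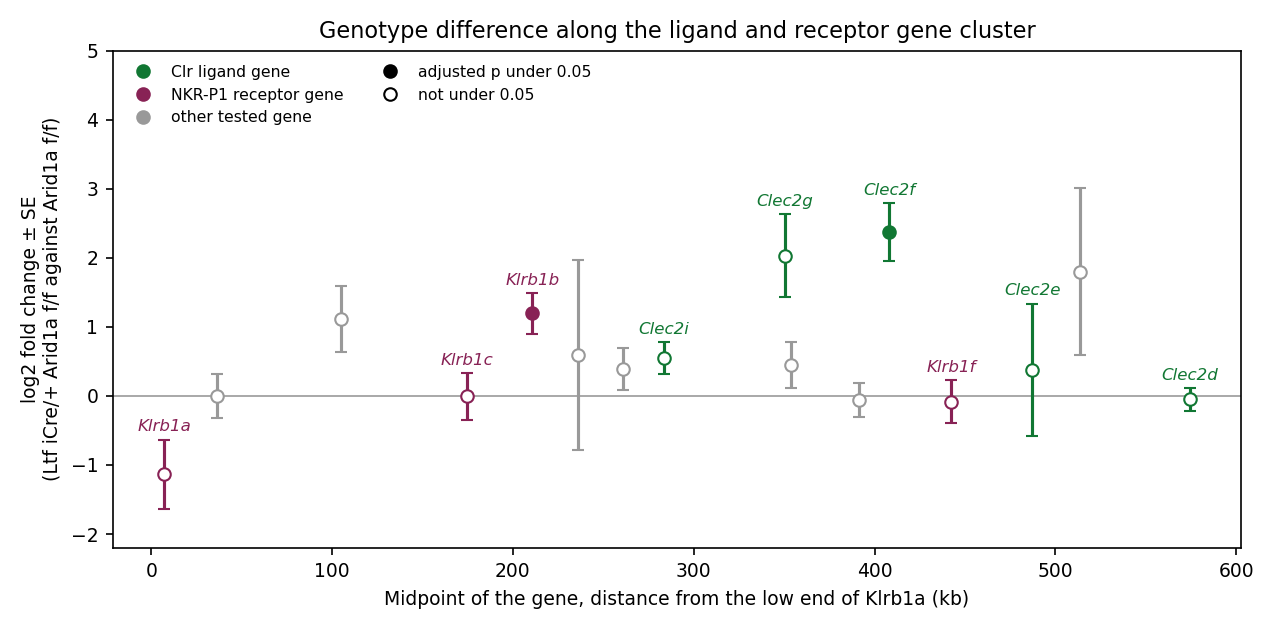
Log2 fold change (Ltf iCre/+ Arid1a f/f against Arid1a f/f, vertical axis, bars are the standard error) of the tested genes of the interval that holds the Clr and NKR-P1 genes, by their distance in kb from its left end (horizontal axis). Of the 16 tested genes, 2 passed the threshold, Clec2f (2.37) and Klrb1b (1.20), and 0 of the 7 others did, where 9.7% of all tested genes passed. Genes beside the interval, of which 4 of 18 passed, are not drawn.

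Within this interval lie 23 of the genes counted, and 16 were tested. The 2 that passed were *Clec2f* and *Klrb1b*, and 0 of the 7 others did in edgeR's test (1 at an unadjusted p under 0.05, and 0 with DESeq2), counts to be read beside the 9.7% of all tested genes. Within 250 kb on either side, 4 of 18 tested genes passed, so calls were not limited to the Clr and NKR-P1 genes. On the *Klrb1a* side these were *A2ml1*, which rose from 0.215 to 20.8 CPM (log2 fold change 6.58, SE 0.78, edgeR adjusted p = 0.00123), and *Nrip2*, which fell by 0.81 (SE 0.17, edgeR adjusted p = 0.0133), both named after their values were seen. On the *Clec2d* side they were *Cd69* and *Clec1a*. Among 17 tested C-type lectin genes elsewhere in the NK gene complex 9 were higher and 8 lower, with a median log2 fold change of 0.054. *Cd69*, an early activation antigen of lymphocytes, rose, and was 1.36 ± 0.310 CPM (SD, n = 5) in controls against 3.85 ± 1.30 CPM in iCre uteri (SD, n = 5; log2 fold change 1.50, SE 0.28, edgeR adjusted p = 0.00861). *Clec7a*, the beta-glucan receptor dectin-1 of myeloid cells, rose from 7.02 ± 2.42 to 29.0 ± 23.8 CPM (SD, n = 5 each; log2 fold change 2.05, SE 0.45, edgeR adjusted p = 0.0181). *Clec1a* fell from 10.4 ± 1.63 to 5.32 ± 0.869 CPM (SD, n = 5 each; log2 fold change -0.97, SE 0.16, edgeR adjusted p = 0.00512). The number called higher in this list was 1 without control replicate 2 or 3, and the number called lower was 2 without control replicate 4 and 4 without iCre replicate 4.

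The 10 genes listed as signalling partners of the receptors were all on the higher side, with a median log2 fold change of 0.52, and 3 passed. Over all genes, 13252 of the 25146 tested were higher and 9.7% passed. The part of T cells in the levels of these 10 genes was not tested. *Cd247*, the zeta chain of T cell and NK cell receptors, rose by 1.26 (SE 0.31, edgeR adjusted p = 0.0286), *Zap70*, a kinase that binds it, by 1.08 (SE 0.30, edgeR adjusted p = 0.0450) and *Vav1*, an exchange factor further along, by 0.73 (SE 0.21, edgeR adjusted p = 0.0489), all on the log2 scale. The number past the threshold was 0 without any 1 of the 5 controls and without iCre replicate 3 or 4.

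Markers of the cells that could carry these genes were read beside them. Of 15 NK cell markers, 9 were higher and 6 lower (median log2 fold change 0.13), and 1 passed, *Itga1*, an integrin chain that fell by 0.68 (SE 0.16, edgeR adjusted p = 0.0220). DESeq2 called 2 of the NK cell markers higher and 1 lower. The summed NK marker level was 132 to 205 CPM in controls and 104 to 229 CPM in iCre uteri, and so overlapped. *Itga1* weighed most in this sum, at 81 CPM in controls, where the next highest marker, *Il2rb*, stood at 18.1 CPM. The ratio of *Klrb1b* to *Ncr1*, the gene of an activating receptor of NK cells chosen after the values were seen, was 0.136 to 0.242 in controls and 0.220 to 1.23 in the other genotype. Mean ratios to *Ncr1* were also higher in iCre uteri for *Klrb1c* (0.548 against 0.749) and *Klrb1f* (0.248 against 0.366). That of *Klrb1a* was lower (0.0719 against 0.0448), and all of these ratios overlapped between genotypes. *Ncr1* itself was 11.3 ± 2.74 CPM (SD, n = 5) in controls and 9.60 ± 5.60 CPM in iCre uteri (SD, n = 5), down to 2.87 CPM. The ratios therefore also move with *Ncr1*, while the levels of *Klrb1c* and *Klrb1f* differed little (log2 fold changes of -0.0060 and -0.082). Of 10 T cell markers, all higher, 5 passed (median log2 fold change 1.07), and their summed level was 19.0 to 25.1 CPM in controls and 33.2 to 89.8 CPM in the other genotype. Without control replicate 3 or 4 the number that passed was 3. *Cd3e*, a chain of the T cell receptor complex, rose from 2.25 ± 0.407 to 9.29 ± 4.67 CPM (SD, n = 5 each; edgeR adjusted p = 0.00512). Macrophage markers had 8 of 10 higher, none past edgeR's threshold (5 at an unadjusted p under 0.05, and 3 with DESeq2), with a median of 0.53 and summed levels of 355.7 to 658.5 and 528.4 to 1603 CPM. Dendritic cell markers had 7 of 8 higher (median 0.59) and 1 that passed, *Zbtb46*, which was lower by 0.60 on the log2 scale, and their summed levels were 79.1 to 96.8 and 97.7 to 159 CPM. With DESeq2, 2 dendritic cell markers passed higher and 1 lower. The part of any of these cells in the levels of the receptors was not tested.

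Epithelial markers were mostly higher. Of 11 markers of luminal and glandular epithelium 9 were higher (median 0.82), 7 passed higher and 1 lower, and their summed level of 781 to 1048 CPM in controls and 1168 to 2209 CPM in the other genotype did not overlap. The number that passed higher was 4 without control replicate 2, 3 or 5. *Wnt7a*, a secreted signal of the luminal epithelium, rose by 1.64 (SE 0.28, edgeR adjusted p = 0.00554), and *Foxa2*, a transcription factor of the glands, fell by 1.13 (SE 0.19, edgeR adjusted p = 0.00570). The ratio of *Clec2f* to *Epcam*, an epithelial adhesion gene chosen after the values were seen, was 0.00422 to 0.0137 in controls and 0.0149 to 0.0208 in the other genotype. The ratio of *Clec2d* to *Epcam* was 0.481 to 0.800 in controls and 0.140 to 0.463 in the other genotype. *Epcam* itself rose from 88.6 ± 10.8 to 203 ± 113 CPM (SD, n = 5 each; log2 fold change 1.2, SE 0.32, edgeR adjusted p = 0.0370). *Clec2d* differed little (-0.049), so its ratio largely restates the difference of *Epcam*. The *Clec2f* ratio partly restates the difference of *Clec2f*. Stromal markers had 8 of 9 lower (median -0.39, 2 past the threshold) with summed levels of 12080 to 17150 and 10200 to 15100 CPM. All 6 markers of the myometrium were lower (median -0.48), none past the threshold of edgeR (1 at an unadjusted p under 0.05, and 1 with DESeq2), with summed levels of 6161 to 10950 and 3159 to 8671 CPM. The part of these tissues in the ligand levels was not tested.

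**Figure D4:**
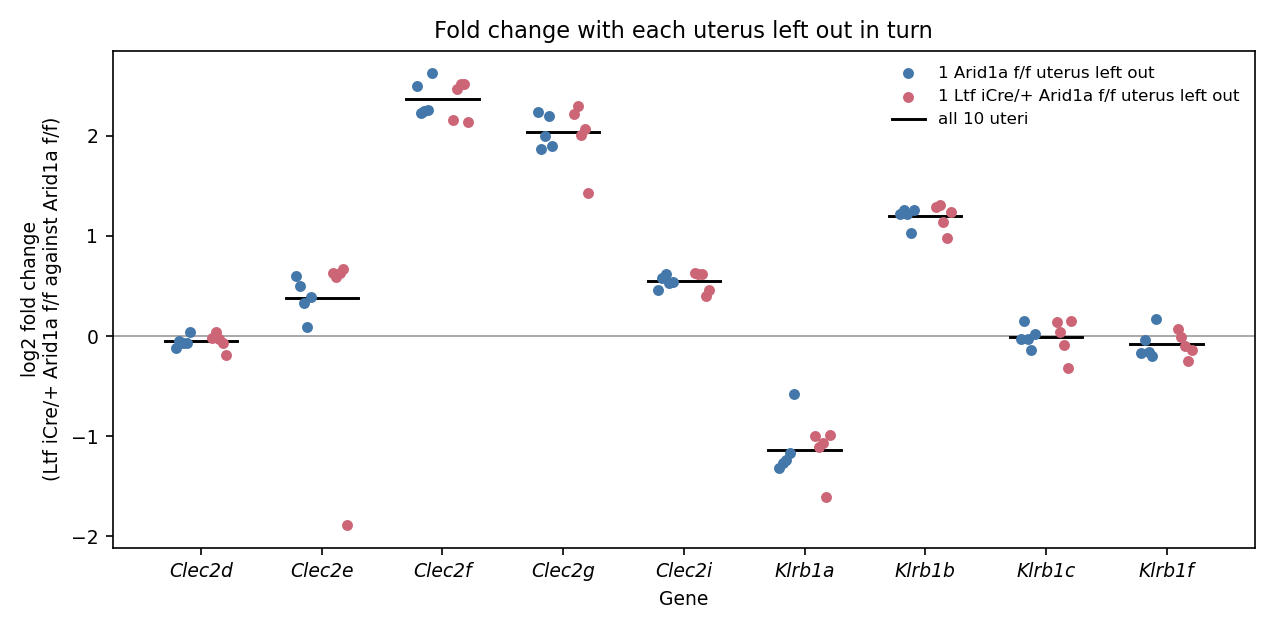
Log2 fold change (Ltf iCre/+ Arid1a f/f against Arid1a f/f) of each Clr ligand and NKR-P1 receptor gene in the fit of all 10 uteri and in the 10 fits that each leave out 1 uterus. Clec2f stays between 2.14 and 2.62 and Klrb1b between 0.98 and 1.31, whereas Clec2e runs from -1.89 to 0.67.

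The spread between uteri was wider in iCre mice over all genes and for most of those described here. The median SD of log2 CPM over all genes was 0.263 in controls and 0.368 in the other genotype. *Clec2d* had 0.230 and 0.335, *Klrb1c* 0.424 and 0.727 and *Clec2g* 0.544 and 1.24. *Klrb1a* was the other way round, at 0.814 and 0.673.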

How the data were processed

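Total uterine RNA of 10 mice was sequenced by the authors as poly(A)-selected, paired end libraries. The reads were trimmed with cutadapt 1.18 and Trim Galore 0.6.4, checked with FastQC 0.11.9 and aligned to GRCm38 with STAR 2.7.3a. The authors deposited whole-number counts per gene, without normalization. Neither the annotation release nor the use of strand in counting is given in the sources used here.

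Of 45706 identifiers, 45143 were found in GENCODE M21, and 25146 genes averaging at least 1 count per library were tested with edgeR 4.0.16 in R 4.3.3 (TMM, quasi-likelihood test, genotype only, Benjamini-Hochberg adjustment, threshold 0.05). CPM used the TMM sizes, and levels per kb the union of exons. DESeq2 1.42.0, its size factors in edgeR, no filter, filterByExpr, the replicate number as a block and the omission of each uterus were alternatives. The procedure was tested on simulated data. Libraries of a genotype differed by a chi-square of at least 36.1 per gene, so none were duplicates.

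The genes and lists were chosen with earlier results of these data known. All 10 genes are named. From the lists of relatives, other lectins of the complex, signalling partners and cell markers, genes past the threshold were named, at most 5 per list by smallest adjusted p, and the exceptions were chosen after their values were seen. Likeness used genes with a mean of at least 100 counts. Promoter windows are from RefSeq. Drawings were made with matplotlib 3.10.9.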

Additional observations from a re-analysis of the deposited data

Results flagged for a closer look

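Single uteri stood apart from the 4 others of their genotype in 4 of 24 groups of values examined (a gap test at the 95% level, which chance passes in about 1 in 20 groups). *Clec2e* was 0.666 CPM in iCre replicate 5 and 0.0145 to 0.0507 CPM in the others. *Klrb1a* was 1.87 CPM in control replicate 5 against 0.392 to 0.739 CPM, and 0.784 CPM in iCre replicate 4 against 0.217 to 0.338 CPM. *Klrb1b* was 1.09 CPM in control replicate 4 against 2.27 to 2.52 CPM.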

How the results depend on the processing

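Of 143 fold changes recomputed for the 9 tested genes, 14 changed sign, 8 fell short of the threshold and 4 passed it newly. The 14 were all of *Clec2d*, *Clec2e*, *Klrb1c* and *Klrb1f*, none past the threshold in the fit of all uteri. Without 1 uterus the log2 fold changes ran from -0.19 to 0.043 (*Clec2d*), -1.89 to 0.67 (*Clec2e*), -0.32 to 0.15 (*Klrb1c*) and -0.25 to 0.17 (*Klrb1f*). Without iCre replicates 1 and 5 together, chosen after seeing the data, they were -1.88 for *Clec2e*, 0.37 for *Klrb1c* and 0.048 for *Klrb1f*. Between 1 and 3 of the 10 genes passed without 1 uterus, 1 to 3 of them higher, and 1204 to 2381 of all genes (594 to 1296 higher, 610 to 1085 lower). DESeq2 called 4103 genes, 2131 higher and 1972 lower, and like filterByExpr it called *Clec2g* besides *Clec2f* and *Klrb1b*. With the replicate block 1 of the 10 genes passed (1 higher), *Klrb1b* at 1.16 did not, *Clec2e* was -0.63, 1 signalling partner and 3 T cell markers passed and 845 genes were called higher. Deviations of same-numbered uteri correlated at -0.157 to 0.177, and 0 of 5 controls were closest to their own number. With 5 uteri per genotype these values cannot show whether the shared numbers pair the uteri, for instance by litter. *Clec2f* passed in every fit run. Of 320 counts over the gene lists, 40 moved by over 1.5 times, among them those of the signalling, T cell, epithelium and other lectin lists without 1 uterus. The NK cell list had 0 called lower without iCre replicates 1 and 5 together. The cause was not tested. Depth limits *Clec2e*, with at most 3 counts in 5 libraries, and *Clec2h*, with 1 count in all.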

Other observations

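Of 8 further genes of these families, 4 were found in the table and 3 tested, none past edgeR's threshold (1 at an unadjusted p under 0.05, and 0 with DESeq2). *Klrb1*, the gene named by its symbol without a letter, was 0.188 ± 0.0495 CPM (SD, n = 5) in controls against 0.408 ± 0.261 CPM in iCre uteri (SD, n = 5), with overlapping values (edgeR adjusted p = 0.169). *Clec2l* was 0.499 ± 0.202 and 0.392 ± 0.318 CPM (SD, n = 5 each), *Klrb1-ps1*, a pseudogene, was at or near 0, and *Clec2j* had no count in any uterus. Their median log2 fold change was 1.12. These genes were named after their values were seen. The promoter windows of *Clec2e* and *Clec2h*, both near or below the floor in these uteri, were alike at 81.8% of alignment positions, gaps included. These windows shared a run of 121 bases, and the coding sequences of the 2 genes were alike at 82.5%.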
